A study of Mus musculus with 4 samples.

Results

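The D-type cyclins and the cyclin-dependent kinase (CDK) inhibitors were examined as a set of 10 genes, Ccnd1, Ccnd2, Ccnd3, Cdkn1a, Cdkn1b, Cdkn1c, Cdkn2a, Cdkn2b, Cdkn2c and Cdkn2d. Every probe set annotated to exactly 1 of these symbols was taken, which gave 10 of the 8251 genes with such a probe set and 13 of the 12488 probe sets on the array: 2 each for Ccnd1, Cdkn1a and Cdkn1b and 1 for each other gene. They were measured in 3 cultures of mouse extraembryonic endoderm (XEN) cells, self-renewing lines that stand for the endoderm of the yolk sac. IM8A1-I and IM8A1-II were the IM8A1 line, PO strain, at passage 27. IM8A1-I grew on gelatin in 70% EMFI-CM, and IM8A1-II was kept on plastic for 4 days in RPMI medium containing 20% FBS. The run record of IM8A1-II describes its sample as 8A1-DIFF, which the labels do not explain. XEN1-3, of the ICR strain, was at passage 18 and shared the surface and medium of IM8A1-I. The XEN cultures were compared with 1 culture of R1 embryonic stem (ES) cells, kept undifferentiated on gelatin with LIF, whose strain the labels do not give. Total RNA of each culture was hybridised to 1 Affymetrix MG_U74Av2 array.

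D-type cyclins are the growth factor-responsive subunits of the kinases Cdk4 and Cdk6, which phosphorylate the retinoblastoma protein and so release E2F factors to open the way into S phase. The Cip/Kip inhibitors (Cdkn1a, Cdkn1b, Cdkn1c) bind a broad range of cyclin-CDK complexes, whereas the Ink4 inhibitors (Cdkn2a to Cdkn2d) bind Cdk4 and Cdk6 only. Mouse ES cells are known for a short G1 phase.

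Signal is an intensity in arbitrary units, already scaled between arrays. A value of 27.3 units, the 40th percentile of all probe sets that are not controls, served as a background limit. It is not a detection call. Differences are given as log2(signal + 10.5 units), which understates the change of dim probe sets. The 3 XEN arrays came from 1 chip lot and 1 hybridisation day and the ES array from another lot and day, so lot, day and cell type cannot be told apart. In the run record of XEN1-3 the fluidics station reported missing fluid. The ratio of 3' to 5' actin probe sets was 1.21 to 1.24 in XEN and 1.25 in ES. All 5 ES cell markers (Pou5f1, Sox2, Nanog, Zfp42, Utf1) were lower in XEN and under the limit on the 3 XEN arrays, and all 8 XEN markers (among them Gata6, Sox17 and Dab2) were higher in XEN. The 8 fibroblast markers summed to 493 to 701 units in XEN and 1022 in ES (1, Thy1, fell), and the 6 trophoblast markers to 79.0 to 124 units in XEN and 897 in ES (1, Tfap2c, fell). Tagln held 538 of the fibroblast units in ES, against 37.7, 214 and 36.1 in the 3 XEN cultures, without passing. Col1a2 ran the other way, at 206 units in ES and 352, 353 and 403 in XEN, without passing. Tfap2c held 767 of the trophoblast units in ES. There was 1 ES array, so the fit assumes that ES cultures vary as the XEN cultures do, and 2 of the 3 XEN cultures are the same line.

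All 13 probe sets reached the limit on at least 1 array and were tested. In XEN cells 1 rose (Ccnd2) and 2 fell (a probe set of Ccnd1, and Cdkn1c) in limma's moderated test with Benjamini-Hochberg adjustment over 8582 probe sets, at an adjusted p under 0.05. Over all tested probe sets 5.58% rose and 5.05% fell, and with values raised to the limit 2.81% rose and 6.25% fell. Without IM8A1-II the 3 members still passed (limma adjusted p of 0.0330 for Ccnd2, 0.0356 for Ccnd1 94232_at and 0.0177 for Cdkn1c). The ES value lay below all 3 XEN values for 7 of the 13 probe sets (39.0% of all tested), above all 3 for 4 (34.0%), and among them for Cdkn2a and Cdkn2b. The median log2 difference of the 13 was 0.23, beside 0.05 over all tested probe sets.

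**Figure D1:**
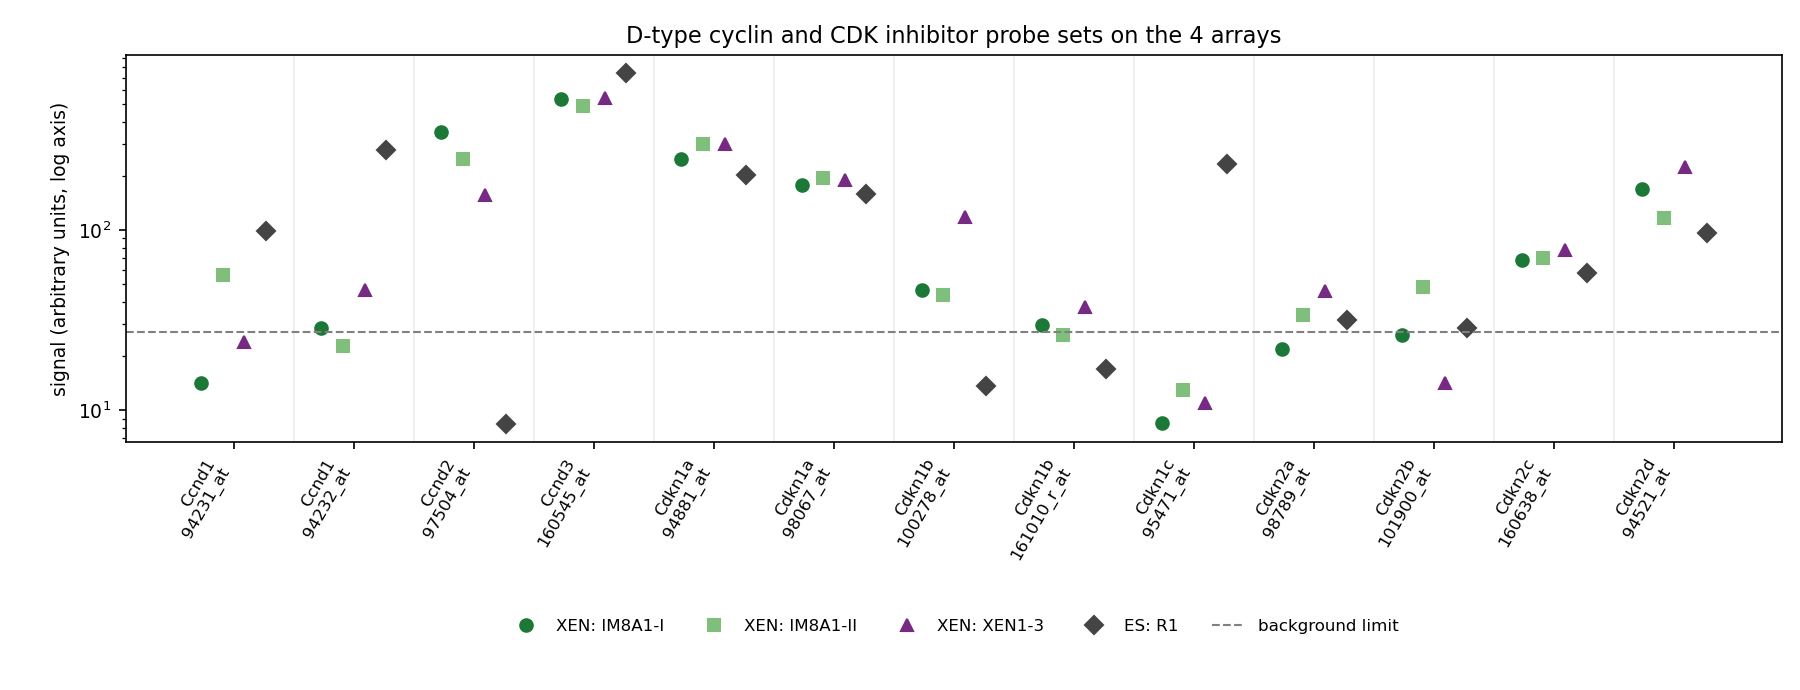
Signal in arbitrary units (log axis) of the 13 member probe sets in the XEN cultures IM8A1-I, IM8A1-II and XEN1-3 and in R1 ES cells, 1 point per array; the dashed line is the background limit of 27.3 units. Ccnd2 is under the limit in ES and above 150 units on every XEN array, Cdkn1c is at 232 units in ES and under 13 units on every XEN array, and Ccnd3 and Cdkn1a lie close together on all 4.

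The D-type cyclins showed opposite differences. Ccnd2, which encodes cyclin D2, stood at 351 and 248 units in IM8A1-I and IM8A1-II and 156 in XEN1-3, against 8.40 units in ES. All 3 XEN values were far above the limit while ES was under it, so the bound on the change is at least 8.74-fold higher in XEN. Its log2 difference was 3.72 ± 0.46 (SE, limma adjusted p = 0.0109), at least as high as in 99.3% of all tested probe sets. The XEN cultures themselves differed, with the lowest value in XEN1-3.

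Ccnd1, which encodes cyclin D1, went the other way. Probe set 94232_at gave 28.5 and 22.9 units in IM8A1-I and IM8A1-II and 46.5 in XEN1-3, against 279 in ES, and averaged 32.6 ± 12.3 (SD, n = 3) in XEN. ES was well apart, and the XEN values straddled the limit. The log2 difference was -2.78 ± 0.39 (SE, limma adjusted p = 0.0144). The second Ccnd1 probe set, 94231_at, had 14.2 and 56.0 units in IM8A1-I and IM8A1-II and 23.9 in XEN1-3, against 98.7 in ES. ES was again highest, but the XEN values spread widely, and the difference of -1.51 ± 0.58 did not pass (limma adjusted p = 0.151). The 2 probe sets also ordered the XEN cultures differently, with IM8A1-II highest in 94231_at and lowest in 94232_at.

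When values were raised to the limit in place of adding an offset, the log2 differences were -3.08 for Ccnd1 94232_at and 3.13 for Ccnd2, and neither passed (limma adjusted p of 0.0561 and 0.0851). Both passed under the 10 other alternative settings, those without any 1 XEN culture among them, where the adjusted p was at most 0.0451 for Ccnd1 94232_at and 0.0330 for Ccnd2.

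Ccnd3, which encodes cyclin D3, was bright on every array, at 531 and 487 units in IM8A1-I and IM8A1-II and 539 in XEN1-3, against 745 in ES. The XEN values lay close together and below ES. The log2 difference of -0.51 ± 0.26 did not pass (limma adjusted p = 0.242), and its 95% interval ran from -1.15 to 0.12.

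Among the Cip/Kip inhibitors, Cdkn1c (p57Kip2), a growth-restraining inhibitor expressed from the maternal allele in mice, fell. It stood at 8.50 and 12.9 units in IM8A1-I and IM8A1-II and 11.0 in XEN1-3, against 232 in ES. All 3 XEN values were under the limit, which gives at least 8.51-fold lower signal in XEN. The log2 difference was -3.52 ± 0.34 (SE, limma adjusted p = 0.00615), and only 0.722% of all tested probe sets had one as low or lower. It passed under all 11 alternative settings, with limma adjusted p between 0.00215 and 0.0207. The lowest came with values raised to the limit, which made the 3 XEN values equal and so removed their spread.

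Cdkn1b (p27Kip1), an inhibitor whose protein accumulates in resting cells, stood at 46.6 and 43.7 units in IM8A1-I and IM8A1-II and 118 in XEN1-3 by probe set 100278_at, against 13.7 in ES. Both IM8A1 cultures were alike, XEN1-3 was highest and ES was under the limit. The log2 difference was 1.60 ± 0.56 and did not pass (limma adjusted p = 0.123), with a 95% interval from 0.23 to 2.97. Probe set 161010_r_at, whose suffix marks a probe set that missed some of the maker's selection rules, had 29.9, 26.3 and 37.4 units in XEN and 17.0 in ES. It ordered the 4 arrays in the same way over a narrower range, with a log2 difference of 0.59 ± 0.35 (limma adjusted p = 0.317). Neither Cdkn1b probe set passed under any of the 11 alternatives (lowest adjusted p of 0.0708 and 0.257).

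Cdkn1a (p21), an inhibitor that p53 induces, did not pass. Probe set 94881_at gave 248 and 299.8 units in IM8A1-I and IM8A1-II and 302 in XEN1-3, against 203 in ES, and 98067_at had 177, 195 and 190 in XEN and 158 in ES. By both probe sets ES was lowest and IM8A1-I came next. The log2 differences were 0.45 ± 0.28 and 0.23 ± 0.26 (limma adjusted p of 0.326 and 0.602), with 95% intervals from -0.23 to 1.14 and from -0.42 to 0.88.

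None of the Ink4 inhibitors passed limma's test, and none had an unadjusted p under 0.05. Cdkn2a, whose locus encodes both Ink4a and the p53 regulator Arf, stood at 21.8 and 33.6 units in IM8A1-I and IM8A1-II and 46.1 in XEN1-3, against 31.6 in ES. Its neighbour Cdkn2b (Ink4b), an inhibitor that TGF-beta induces, had 26.3, 48.2 and 14.2 units in XEN and 28.7 in ES. Both genes were dim, with ES inside the XEN range, and the 2 probe sets ranked XEN1-3 differently, highest for Cdkn2a and lowest for Cdkn2b. Their log2 differences of 0.04 ± 0.42 and -0.06 ± 0.54 changed sign under some settings.

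The other Ink4 genes stood higher in every XEN culture than in ES without passing. Cdkn2c (Ink4c) stood at 68.2 and 69.9 units in IM8A1-I and IM8A1-II and 77.7 in XEN1-3, against 57.8 in ES, a log2 difference of 0.27 ± 0.28 (limma adjusted p = 0.558). Cdkn2d (Ink4d) had 168, 116 and 224 units in XEN and 95.9 in ES, a log2 difference of 0.71 ± 0.40 (limma adjusted p = 0.288). The 95% intervals ran from -0.42 to 0.96 for Cdkn2c and from -0.27 to 1.70 for Cdkn2d. XEN1-3 had the highest value of both genes.

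**Figure D2:**
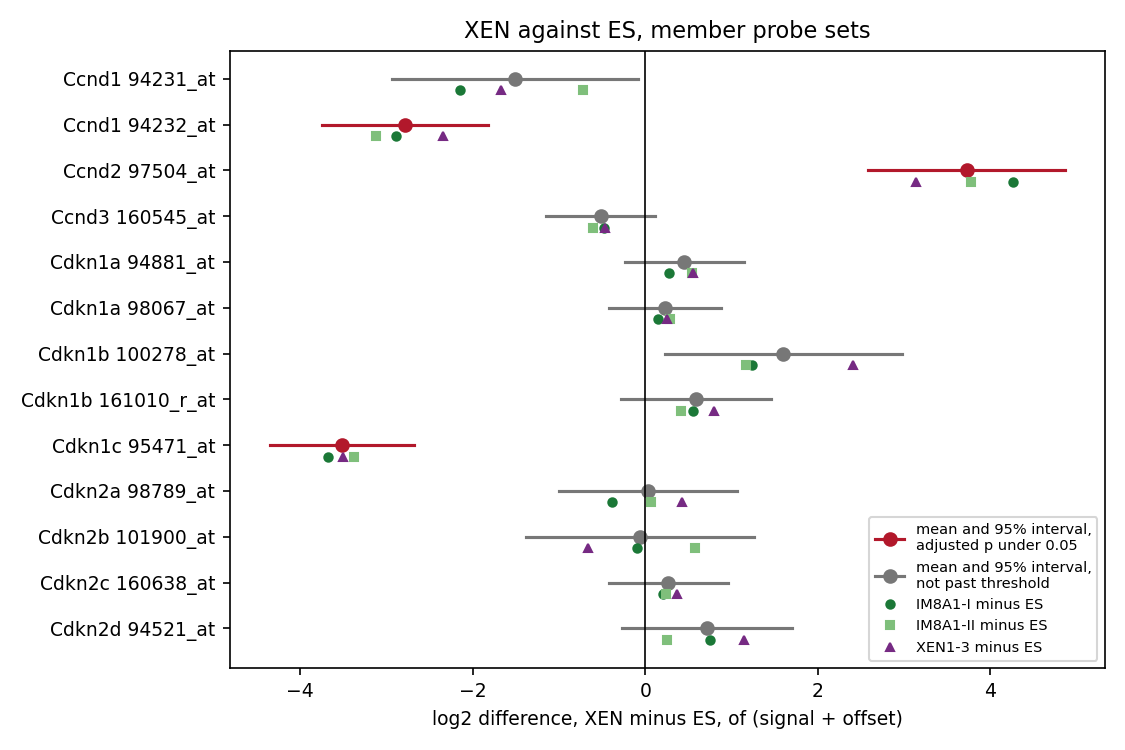
Log2 difference of (signal + offset), XEN minus ES, for the 13 member probe sets; large circles and lines are the mean over 3 XEN arrays and its 95% interval from limma's moderated error (red, adjusted p under 0.05; grey, not past it), and small symbols are the single XEN cultures. The intervals of Cdkn1c, Ccnd1 94232_at and Ccnd2 lie far from 0, and the 3 cultures of each of these lie on the same side.

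The promoter table of RefSeq (GRCm38.p6), which spans 250 bases before to 50 after a gene start, was matched by symbol to 7 of the 10 members, with 11 start sites. Ccnd1, Ccnd2 and Cdkn1c were not matched. The sequences of Cdkn1b and Cdkn2d are shown because these were the matched inhibitors with the largest differences toward XEN, although neither passed the test. Capitals mark the letters of the GC box (GGGCGG) and of the CCAAT box on either strand, which do not overlap in these sequences.
Cdkn1b, chr6:134920151-134920450, plus strand: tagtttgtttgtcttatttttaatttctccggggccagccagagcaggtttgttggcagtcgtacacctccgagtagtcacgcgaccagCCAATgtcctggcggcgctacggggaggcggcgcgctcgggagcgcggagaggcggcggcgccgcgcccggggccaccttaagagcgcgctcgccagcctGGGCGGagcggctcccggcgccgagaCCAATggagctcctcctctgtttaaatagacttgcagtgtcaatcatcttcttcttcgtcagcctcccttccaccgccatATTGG
Cdkn2d, chr9:21291160-21291459, minus strand: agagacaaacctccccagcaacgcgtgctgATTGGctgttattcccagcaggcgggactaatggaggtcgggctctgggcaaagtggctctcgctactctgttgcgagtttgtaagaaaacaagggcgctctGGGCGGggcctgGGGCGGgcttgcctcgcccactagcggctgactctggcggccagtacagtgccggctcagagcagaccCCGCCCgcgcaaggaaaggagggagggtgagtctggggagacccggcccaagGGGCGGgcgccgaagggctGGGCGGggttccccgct
The Cdkn1b stretch held 1 GC box and 3 CCAAT boxes and the Cdkn2d stretch 5 GC boxes and 1 CCAAT box. A GC box was found in 9 of the 11 member promoters and in 35.7% of the 32851 promoters of the table, and a CCAAT box in 5 of 11 and in 37.4%. These matches are descriptions of the letters.

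The 2 IM8A1 cultures, which are the same line at the same passage, with different surfaces, media and record names, had 1 member probe set at least 2-fold apart on the log2(signal + offset) scale, beside 5.98% of all tested probe sets. It was Ccnd1 94231_at, with 56.0 units in IM8A1-II and 14.2 in IM8A1-I, a log2 difference of 1.43 that the other Ccnd1 probe set did not share (-0.22). XEN1-3 and IM8A1-I differed in line, strain, passage and fluidics message, which cannot be told apart. They were at least 2-fold apart for 2 of the 13 member probe sets, beside 9.11% of all tested. The 2 probe sets were Cdkn1b 100278_at, higher by 1.17 in XEN1-3, and Ccnd2, with a log2 difference of -1.12. Each side is 1 array, so these differences have no replicate check, and neither comparison had a member probe set 2-fold apart when the 50th percentile served as the offset.

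The genes that D-type cyclins and CDK inhibitors act on or with were listed as G1 partners. Of 26 such genes 19 were on the array and 16 were tested, of which 0 rose, 1 fell and 15 did not pass, beside 11.0% past the threshold over 6344 genes at 1 probe set each. Their median log2 difference was -0.14, beside 0.03 over those genes. The one that fell was Ccne1, encoding cyclin E1, the partner of Cdk2 at S phase entry, at 226 and 222 units in IM8A1-I and IM8A1-II and 212 in XEN1-3, against 525 in ES. Its log2 difference was -1.22 ± 0.26 (limma adjusted p = 0.0414), and it did not pass without IM8A1-I (0.110), without IM8A1-II (0.104) or with each XEN line counted once (0.0799).

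The direct partner Cdk4 had 952, 891 and 1124 units in the 3 XEN cultures and 1427 in ES (log2 difference -0.53 ± 0.27, limma adjusted p = 0.251). The Cdk subunit gene Cks1b and the E2F partner Tfdp1 had log2 differences of 0.30 ± 0.31 and -0.27 ± 0.25 without passing. Of the 3 Tfdp1 probe sets, a dim one ran the other way, at 0.74 ± 0.39. Of 12 markers of cycling cells (such as Mki67, Pcna and Mcm5) 11 were on the array and on none of the 4 arrays was one under the limit. Their summed signal was 6682 to 6959 units in XEN and 11516 in ES, and 1 of the 11, the mitotic activator Cdc20, fell. For each of the 11 the ES value lay above all 3 XEN values, beside 34.0% of all tested probe sets. Their log2 differences ran from -0.34 (Mki67) to -1.46 (Cdc20). The part of these markers in the differences of Ccnd1, Ccnd2 and Cdkn1c was not tested, and in RNA from whole cultures fewer expressing cells and less RNA per cell cannot be told apart.

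Cdkn1a was set beside a list of other p53 targets and p53 itself, which was not among those on the array. Of 20 listed genes 13 were on the array and 12 were tested, of which 0 passed limma's test in either direction, beside 11.0% of the 6344 genes. By an unadjusted p under 0.05, 2 of the 12 stood higher and 0 lower, beside 14.8% and 15.1% of the 6344 genes. Their median log2 difference was -0.27. The antiproliferative gene Btg2 had 1123, 881 and 1046 units in the 3 XEN cultures and 494 in ES (1.02 ± 0.28, limma adjusted p = 0.0726). Mdm2, the ubiquitin ligase that degrades p53, had 521, 601 and 644 units in XEN and 509 in ES (0.20 ± 0.27). The polo-like kinase genes Plk2 and Plk3 had log2 differences of 0.99 ± 0.50 and -0.07 ± 0.31 without passing. Perp, a membrane protein gene named after its values were seen, had 1.90 and 3.10 units in IM8A1-I and IM8A1-II and 147 in XEN1-3, against 164 in ES. XEN1-3 thus stood apart from both IM8A1 cultures, and its line, strain, passage and fluidics message cannot be told apart. Of the 11 alternatives Perp passed, as lower, only without XEN1-3 (log2 difference -3.75, limma adjusted p = 0.00366).

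Cdkn1c lies in an imprinted domain of distal mouse chromosome 7, whose maternally expressed genes are silenced on the paternal chromosome under the control of the noncoding RNA Kcnq1ot1. Of 13 listed genes of and around the domain 12 were on the array and 11 were tested. Of these 0 rose, 1 fell and 10 did not pass, beside 11.0% past the threshold over the 6344 genes, with a median log2 difference of -0.13. The 1 that fell was Cdkn1c itself, the member around which the list was drawn up, so that call is no result about its neighbours. With values raised to the limit Ascl2 and Osbpl5, dim genes named after their values were seen, passed as lower too (limma adjusted p of 0.0172 and 0.0135). Their log2 differences were then -0.28 and -1.09. That setting made the XEN values of Ascl2 equal and left those of Osbpl5 little spread, so these p-values do not reflect the measured spread. Phlda2, an imprinted gene that restrains placental growth, stood at 186 and 313 units in IM8A1-I and IM8A1-II and 53.5 in XEN1-3, against 320 in ES. Its XEN values were uneven, with XEN1-3 lowest, and the difference of -1.05 ± 0.85 did not pass (limma adjusted p = 0.455). It was -0.39 without XEN1-3 and -1.56 without IM8A1-II. Slc22a18 and Kcnq1, named for their place beside Cdkn1c in the list's gene order and after their values were seen, did not pass. Slc22a18 had 58.2, 55.5 and 61.4 units in XEN and 53.4 in ES. Kcnq1 had a log2 difference of 0.74 ± 0.27 by probe set 161796_r_at, while its other probe set, 99322_at, was under the limit on all 4 arrays, was not tested and stood at -0.35. The tetraspanin gene Cd81 and Tssc4 had log2 differences of -0.08 ± 0.30 and 0.35 ± 0.27 without passing. Ccnd1 lies farther along the same chromosome, beyond the listed genes.

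**Figure D3:**
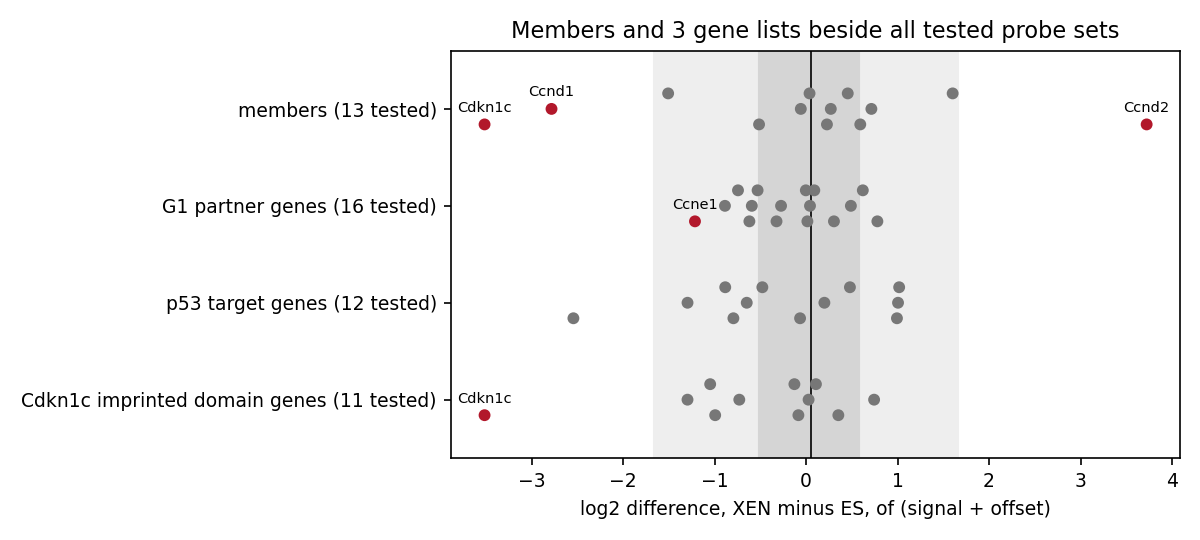
Log2 difference of (signal + offset), XEN minus ES, for the 13 member probe sets and the tested genes of the 3 lists, 1 point each (red and named, adjusted p under 0.05; grey, not past it). Light and dark bands hold the central 90% and 50% of all tested probe sets and the vertical line is their median of 0.05; Cdkn1c, Ccnd1 94232_at and Ccnd2 lie outside the light band, as does Perp at -2.54 among the p53 targets.

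**Figure D4:**
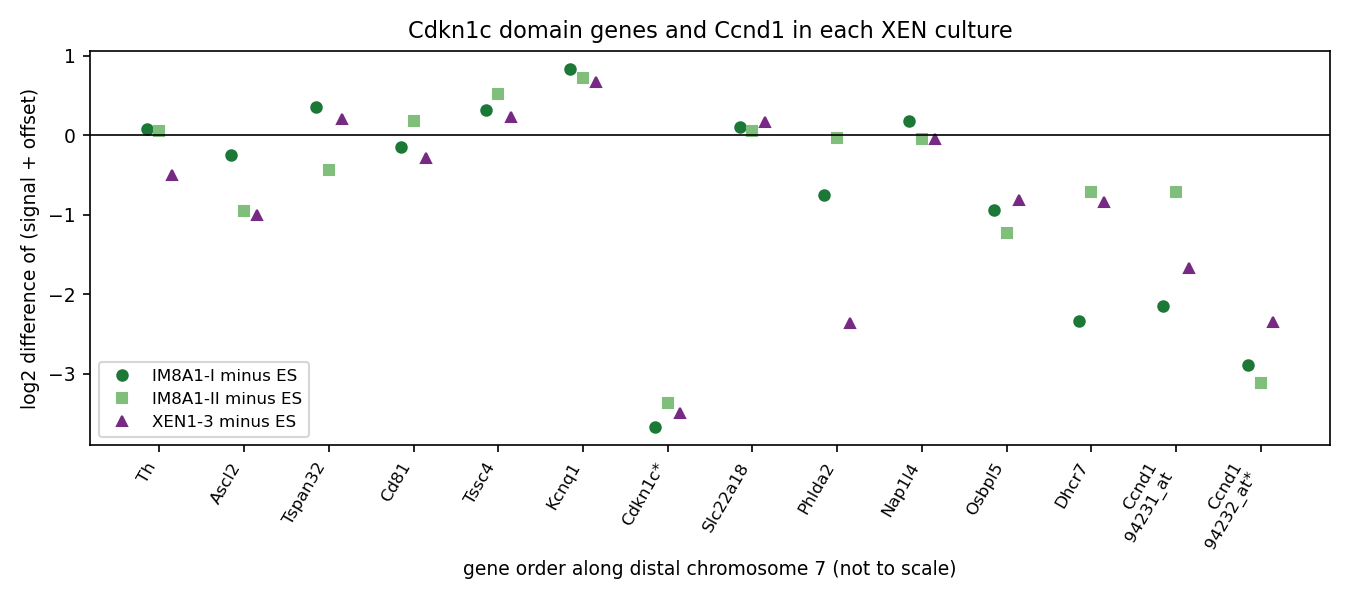
Log2 difference of (signal + offset) from ES in IM8A1-I, IM8A1-II and XEN1-3 (1 point per culture) for listed genes of and around the Cdkn1c domain and for both Ccnd1 probe sets, in gene order along chromosome 7; a star marks an adjusted p under 0.05. Cdkn1c is at -3.68, -3.38 and -3.50 in the 3 cultures. Its neighbours in the list, Slc22a18 (by at most 0.17) and the plotted Kcnq1 probe set (161796_r_at), are above 0 in each, without a star. Ascl2, Phlda2, Osbpl5 and Dhcr7 are below 0 in each, also without a star. The other Kcnq1 probe set, under the limit on all 4 arrays, is not plotted.

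The genes whose 4 log2 values, centred on their mean, lay nearest to those of a changed member were found among 7714 tested probe sets with 1 symbol, by Euclidean distance over the 4 arrays. For Ccnd2 these were P4ha2, a subunit of collagen prolyl hydroxylase, at 3569 in IM8A1-I, 2345 in IM8A1-II, 2040 in XEN1-3 and 163 in ES (distance 0.352), and Ndrg1 (0.511). For Cdkn1c they were Gbp2, at 3.20, 5.50 and 5.30 units in XEN and 166 in ES (0.0805), and Wfdc2 (0.172). For Ccnd1 94232_at they were Spata13, at 14.1, 12.6 and 24.1 units in XEN and 151 in ES (0.220), and Gad1 (0.254). Gbp2, Wfdc2, Spata13 and Gad1 were under the limit on all 3 XEN arrays, as Cdkn1c was. Ccnd2 was under it in ES, where P4ha2 and Ndrg1 were not. The distances of all 3 members therefore depend on the offset. All distances were measured over 4 arrays, 1 of them ES.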

How the data were processed

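The authors deposited 1 linear intensity for each probe set of each array. The 2% trimmed means of the deposited intensity columns (150.088 to 150.095 over the 3 XEN arrays, 150.092 in ES) show that they had been scaled to a common level. The program that summarised and scaled them: not given in the sources used here. Chip type, chip lot and fluidics messages are per the file headers of the run records. Groups were taken from the labels, which do not say that cultures were independent. The p-values rest on the spread among the 3 XEN cultures, moderated over probe sets, and the 1 ES array adds none. They speak for these cultures only.

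Arrays were brought to 1 common 2% trimmed mean, 10.5 units (the 25th percentile) were added and log2 was taken. Of the 12488 probe sets 66 were controls and were left out of the percentiles and the tests. Probe sets with at least 1 array at or above 27.3 units were tested with limma 3.58.1 in R 4.3.3 (lmFit, eBayes with a variance trend, two-sided, residual degrees of freedom 2 and prior 3.76). The fit was tested on simulated data, where it recovered 42% of changes of log2 1 and 100% of those of log2 2, 3 or 4. Of the simulated calls 4.47% were false. A difference near log2 1 that did not pass can thus be a missed change. If every array of a group was under the limit, the bound is the other group's geometric mean divided by the limit. In the platform annotation 10833 probe sets had 1 symbol, and 10817 of these matched the RefSeq gene table (GRCm38.p6) through their gene ID, with 0 symbols changed. That table was used for names, chromosomes and gene order. Probe sets were not placed on transcripts, so the Ink4a and Arf transcripts of Cdkn2a were not told apart.

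All member probe sets are given. A list gene is represented by its probe set of highest mean log2 value. From each list up to 6 genes past the threshold were named by smallest p, or the brightest up to 4 where fewer than 4 passed. List genes named outside this rule are marked as such, and the marker genes Thy1, Tagln, Col1a2, Tfap2c and Cdc20 were named after their values were seen. The members and lists were chosen with earlier results of these data known. Alternatives were other offsets, a floor, no filter, median or quantile scaling, no variance trend, each XEN line counted once and leaving out each XEN culture. Figures were drawn with matplotlib 3.10.9.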

Additional observations from a re-analysis of the deposited data

How the results depend on the processing

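The count of 3 member probe sets past the threshold was the same under 10 of the 11 alternatives and was 1, Cdkn1c, with values raised to the background limit. There the XEN values of Cdkn1c were made equal, so its pass under that setting does not reflect their measured spread. The signs of the 11 probe sets other than Cdkn2a and Cdkn2b were the same under all 11. The log2 difference of Cdkn2a was -0.0441 with median scaling, -0.0192 with quantile normalization and -0.16 to 0.25 without 1 XEN culture. That of Cdkn2b was 0.20 with values raised to the limit and -0.38 to 0.25 without 1 XEN culture. Plk3 was at 0.0163 with each XEN line counted once and at -0.23 to 0.0189 without 1 culture, and Cd81 at -0.21 to 0.0144. Leaving out 1 XEN culture gave 366 (without IM8A1-I), 444 (without IM8A1-II) and 1488 (without XEN1-3) calls over all probe sets, against 912 with all, and 0 to 1 among both the G1 partners and the p53 targets. The G1 partners had 0 calls with each XEN line counted once, and the Cdkn1c domain had 3 with values raised to the limit. Those 3 genes had all or most XEN values under the limit, so that setting left them little or no spread. With an offset of the 50th percentile 0 member probe sets were 2-fold apart between XEN cultures in either comparison. With values raised to the limit the calls over all probe sets were 241 higher and 536 lower, against 479 and 433 with the offset. No other total of calls moved by over 1.5 times. The causes were not tested. No paired analysis was possible because there was 1 ES array. The single ES array and the dim signals near the limit restrict the precision.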
